A study of Homo sapiens with 12 samples.

Results

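Ribosome biogenesis factors are the proteins that build ribosomes without remaining in them. Here they are 60 genes listed by name for their textbook roles and kept where the mean was at least 1 TPM, with no difference between groups in the rule. They are 60 of the 60902 genes of the expression table. The list was chosen with earlier results of these data known, so its counts describe these data and are no independent test. TPM states the share of a gene among the transcripts of its library after correction for transcript length. By the same minimum each was among the 13854 genes tested. By role they comprised 7 proteins of the box C/D and box H/ACA small nucleolar ribonucleoproteins (snoRNPs), 5 of the UTP-A complex, 5 of the UTP-B complex, 3 bound to the U3 snoRNP, 8 other factors of the 90S pre-ribosome, 8 of pre-40S maturation, 19 of pre-60S maturation and 5 nucleolar proteins linked to rRNA transcription.

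RNA came from A549/DDP, a human lung adenocarcinoma line derived from A549 cells that tolerates cisplatin (DDP), a platinum drug which forms crosslinks in DNA. In the TRF + DDP group the cells received cisplatin and a medium regime that mimics time-restricted feeding (TRF), which is 6 h in full medium and then 18 h in medium lacking both serum and glucose, per cycle of 24 h. The TRF group had the same regime with no cisplatin, the DDP group had cisplatin in full medium, and the control (CON) group stayed in full medium with 2 g/L glucose and 10% serum. Each group held 3 libraries. The study calls its replicates biological, and the labels name no separate cultures, so p-values measure the spread between these libraries. The line is 1 selected derivative kept under cisplatin for maintenance. The study gives a cisplatin dose and time for the qPCR in this line that accompanied the sequencing, does not state them separately for the sequenced samples, and does not say whether the maintenance drug was withdrawn. The methods name A549 where the labels name A549/DDP.

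Ribosomes are assembled in the nucleolus, where RNA polymerase I transcribes a long precursor rRNA. The snoRNPs guide its chemical modification, the UTP-A, UTP-B and U3 complexes fold its leading part into the 90S pre-ribosome, and separate sets of factors then carry the small (pre-40S) and large (pre-60S) particles to the cytoplasm. Growing and dividing cells, tumor cells among them, put much of their transcription and translation into this work, and nutrients and serum growth factors are known to regulate it.

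As a check of the labelled cell type, the epithelial keratins KRT7, KRT8 and KRT18 passed 1 TPM, whereas KRT19, EPCAM and CDH1 stayed below it in all 12 libraries. The 6 epithelial markers summed to 2687 to 2876 TPM in TRF + DDP, 2715 to 2881 TPM in TRF, 2296 to 2586 TPM in DDP and 1850.0 to 1925 TPM in CON. None of 7 leukocyte and none of 5 endothelial markers reached a mean of 1 TPM, and 1 of 5 fibroblast markers did. The fibroblast sums were 5.88 to 6.94 TPM in TRF + DDP, 10.5 to 11.9 TPM in TRF, 16.4 to 20.9 TPM in DDP and 14.0 to 16.6 TPM in CON. Mitochondrially encoded genes took 8.46% of TPM in TRF + DDP, 7.97% in TRF (lowest 6.37%), 9.92% in DDP and 10.7% in CON. Genes at 1 TPM or more numbered 13384 to 13500 in TRF + DDP, 13029 to 13307 in TRF, 13866 to 14028 in DDP and 13726 to 13854 in CON. These values differ with the medium regime, and some of them also with cisplatin, such as the epithelial sums in DDP and CON. Their part in the differences between groups was not tested. The depth of the libraries is unknown because TPM keeps no read number, so that no counting interval is given.

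Promoters are shown for the 3 members with the largest change under the regime and for the member with the smallest, since most members moved in one direction. RefSeq (GRCh38.p14) gave a promoter for 51 of the 60 members, as 250 bases before to 50 bases after the annotated start. The motif searched was the E-box CACGTG, the hexamer that MYC with MAX is known to bind, which reads the same on both strands. The lines give the last 200 bases before the start and the first 30 after it, 5′ to 3′ on the strand of the gene, with the E-box in capitals. The NOL6 window lies at chr9:33473895-33474124 on the minus strand and that of UTP15 at chr5:73565543-73565772 on the plus strand. That of DDX10 at chr11:108664869-108665098 on the plus strand and that of NHP2 at chr5:178153856-178154085 on the minus strand.
NOL6: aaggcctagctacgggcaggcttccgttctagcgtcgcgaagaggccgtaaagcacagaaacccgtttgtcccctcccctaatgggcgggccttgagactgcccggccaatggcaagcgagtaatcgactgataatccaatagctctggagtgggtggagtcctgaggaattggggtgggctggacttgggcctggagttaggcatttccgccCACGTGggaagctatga
UTP15: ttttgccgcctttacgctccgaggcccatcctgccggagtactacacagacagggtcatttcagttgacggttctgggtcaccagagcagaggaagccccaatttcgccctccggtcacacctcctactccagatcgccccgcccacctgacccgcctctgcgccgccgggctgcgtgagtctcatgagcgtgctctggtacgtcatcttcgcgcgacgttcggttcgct
DDX10: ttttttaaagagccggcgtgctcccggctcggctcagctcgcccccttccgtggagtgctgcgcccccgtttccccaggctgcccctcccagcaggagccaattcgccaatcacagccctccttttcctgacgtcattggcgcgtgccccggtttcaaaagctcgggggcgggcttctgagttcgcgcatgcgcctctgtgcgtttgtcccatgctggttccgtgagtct
NHP2: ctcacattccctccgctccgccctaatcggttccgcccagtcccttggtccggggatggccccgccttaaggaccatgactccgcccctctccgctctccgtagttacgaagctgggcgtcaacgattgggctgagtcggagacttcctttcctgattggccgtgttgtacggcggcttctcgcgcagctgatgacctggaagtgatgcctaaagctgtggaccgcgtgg
NOL6 had the largest change of the 60 and carries the hexamer just after its start. UTP15 and DDX10 came next and do not contain these letters in the printed window, and NHP2, with the smallest change, does not contain them either. In the full windows, 23 of 51 members (45.1%) held the hexamer in a promoter, against 1284 of 10073 tested genes with a promoter (12.7%). Counted by promoter and not by gene, 2548 of all 35116 promoters of the table held it (7.26%). Of the 27 matches in member promoters, 23 lay within 50 bases of the start. Of the 23 members with the hexamer, 17 were called higher in TRF + DDP than in DDP (73.9%, median log2 fold change 1.01), and so were 21 of the 28 without it (75%, median 0.84), a difference that was not tested. The matches are a description of letters and say nothing of which factor was bound.

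The first question was what the feeding regime did to ribosome biogenesis transcripts in cells under cisplatin. In TRF + DDP against DDP, 43 of the 60 members were called higher and 0 lower (limma, fold over 1.5 with an adjusted p under 0.05), where 11.8% of all tested genes were called higher and 21.4% lower. The median log2 fold change of the members was 0.84, against -0.10 over all tested genes. With a scaling of the libraries in the manner of TMM, the median of all genes was 0.00 and that of the members 0.95. The share of all called genes that were higher was then 47.0%, against 35.5% without scaling. Of the 17 members that were not called, FBL, LAS1L, NOP14 and UTP18 were the 4 with a log2 fold change below 0. In bulk RNA, fewer cells of a type and less RNA per cell cannot be told apart, and a TPM states a share of the library, not an amount per cell.

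Without cisplatin the regime was followed by the same direction. In TRF against CON, 33 of 60 members were called higher and 0 lower, against 8.41% and 17.1% of all tested genes, and the median log2 fold change was 0.61 over the members and -0.11 over all tested genes. With TMM-style scaling that median of all genes was -0.01, and 46.6% of all called genes were higher, against 32.9% without scaling. All 33 were also among the 43 called in TRF + DDP against DDP, 10 members were called only with cisplatin, and none only without it. A call in 1 comparison and not in the other is no test of a difference, which the interaction below addresses. Without cisplatin the 10 had log2 fold changes from -0.10 for RIOK2 to 0.58 for NOP2, the latter just under the fold threshold. The same overlap of calls was not counted over all tested genes. These 2 comparisons share no library, and over the 60 members their log2 fold changes had a Pearson r of 0.84 and a Spearman rho of 0.85, against 0.69 and 0.70 over all 13854 tested genes. These are correlations across genes, which are not independent replicates, and they are given as a description. TRF + DDP against CON, which shares its libraries with the comparisons above, had 45 members called higher and 1 lower, against 15.6% and 19.5% of all tested genes, with a median of 0.88 over the members and -0.03 over all genes.

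**Figure D1:**
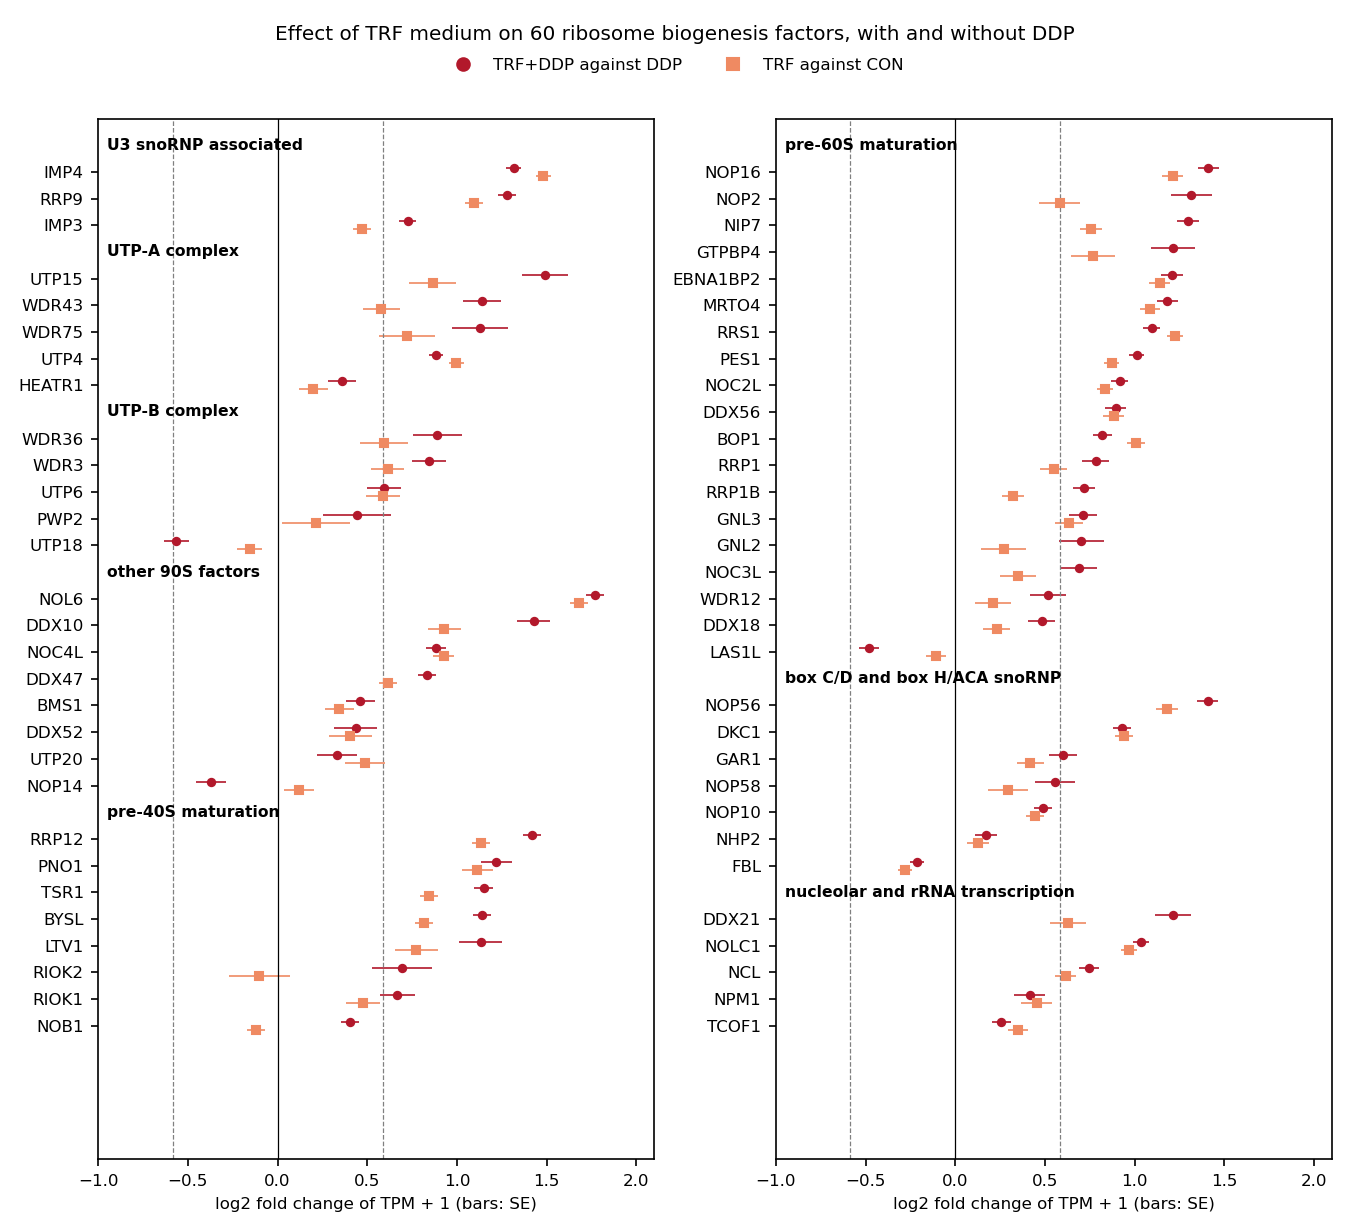
Log2 fold change of TPM + 1 (horizontal axis, bars are SE) of each of the 60 members, by role, for TRF + DDP against DDP (circles) and TRF against CON (squares), with dashed lines at a fold of 1.5. Most members lie to the right of 0 in both comparisons, with NOL6 farthest right at 1.77, while UTP18, LAS1L, NOP14 and FBL lie left of 0 with cisplatin.

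The members together took a larger share of the library under the regime. The 60 genes together took 0.721 ± 0.00742% of TPM in TRF + DDP, 0.701 ± 0.0251% in TRF, 0.466 ± 0.0126% in DDP and 0.486 ± 0.0153% in CON (SD, n = 3 each). The libraries of the TRF + DDP and TRF groups did not overlap with those of DDP and CON. NPM1, the histone chaperone nucleophosmin, made up a large part of these sums. Without it they were 0.566 ± 0.00590% in TRF + DDP, 0.522 ± 0.0151% in TRF, 0.350 ± 0.00186% in DDP and 0.356 ± 0.00361% in CON (SD, n = 3 each). Level and change showed little relation across the members, with a Pearson r of 0.00 and a Spearman rho of 0.14 between the log2 mean TPM and the log2 fold change in TRF + DDP against DDP. By mean level, 8 of 13 members at 100 TPM or more, 32 of 41 between 10 and 100 TPM and 3 of 6 under 10 TPM were called higher.

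The 90S factors held the widest spread of changes. In TRF + DDP against DDP, 4 of 8 were called higher with a median log2 fold change of 0.65, and 4 of 8 were also higher in TRF against CON. NOL6, the human counterpart of yeast Utp22, had 60.2, 61.2 and 57.8 TPM in TRF + DDP, 54.8, 51.2 and 52.4 TPM in TRF, 16.4, 16.9 and 17.1 TPM in DDP and 16.4, 15.9 and 15.2 TPM in CON. All 6 libraries under the regime lay above all 6 in full medium and TRF + DDP lay above TRF by less than the fold threshold. The log2 fold change of NOL6 was 1.77 ± 0.05 (SE, adjusted p = 4.84e-11) in TRF + DDP against DDP and 1.68 ± 0.05 (SE, adjusted p = 1.02e-10) in TRF against CON. DDX10, a DEAD-box RNA helicase, had 19.6, 20.4 and 19.1 TPM in TRF + DDP, 15.2, 17.8 and 17.5 TPM in TRF, 6.16, 7.44 and 6.55 TPM in DDP and 9.48, 7.82 and 7.85 TPM in CON. Its groups under the regime did not overlap with those in full medium, and the change was 1.43 ± 0.09 (SE, adjusted p = 4.42e-08) with cisplatin and 0.93 ± 0.09 (SE, adjusted p = 3.14e-06) without. NOC4L, the partner of NOP14 in the early small subunit particle, had 41.2, 41.5 and 38.5 TPM in TRF + DDP, 41.7, 38.3 and 40.3 TPM in TRF, 20.6, 21.5 and 22.3 TPM in DDP and 19.5, 21.04 and 21.4 TPM in CON. Its TRF + DDP and TRF libraries overlapped each other and lay above all others, at 0.88 ± 0.06 (SE, adjusted p = 4.77e-08) with cisplatin and 0.93 ± 0.06 (SE, adjusted p = 5.37e-08) without.

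UTP20, NOP14, BMS1 and DDX52 were the members of this class not called in TRF + DDP against DDP, and BMS1 and DDX52 had log2 fold changes of 0.46 and 0.44. UTP20, a very large scaffold protein, had 5.50, 4.85 and 5.21 TPM in TRF + DDP, 5.45, 7.34 and 5.25 TPM in TRF, 3.90, 4.13 and 3.71 TPM in DDP and 4.20, 3.69 and 4.01 TPM in CON. Its change of 0.33 ± 0.11 (SE, adjusted p = 0.0199) in TRF + DDP against DDP was under the fold threshold, and TRF replicate 2 stood above the other 11 libraries. NOP14 had 13.4, 15.5 and 12.03 TPM in TRF + DDP, 20.3, 21.4 and 21.1 TPM in TRF, 17.8, 17.1 and 18.9 TPM in DDP and 18.3, 18.7 and 20.6 TPM in CON. The TRF + DDP libraries were the lowest of the 12, and among the 5 comparisons of groups the only call was against TRF, at -0.59 ± 0.08 (SE, adjusted p = 0.000121). That call fell under the fold threshold without TRF replicate 2, TRF replicate 3, TRF + DDP replicate 1 or TRF + DDP replicate 3. The log2 fold change was then -0.51 to -0.58. NOP14-AS1, an antisense gene that overlaps NOP14 over 23806 bases, averaged 41.4 TPM in TRF + DDP, 16.4 TPM in TRF, 13.0 TPM in DDP and 9.59 TPM in CON. The use of strand in counting is not given in the sources used here, so the reads of NOP14 and of its antisense partner cannot be told apart.

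**Figure D2:**
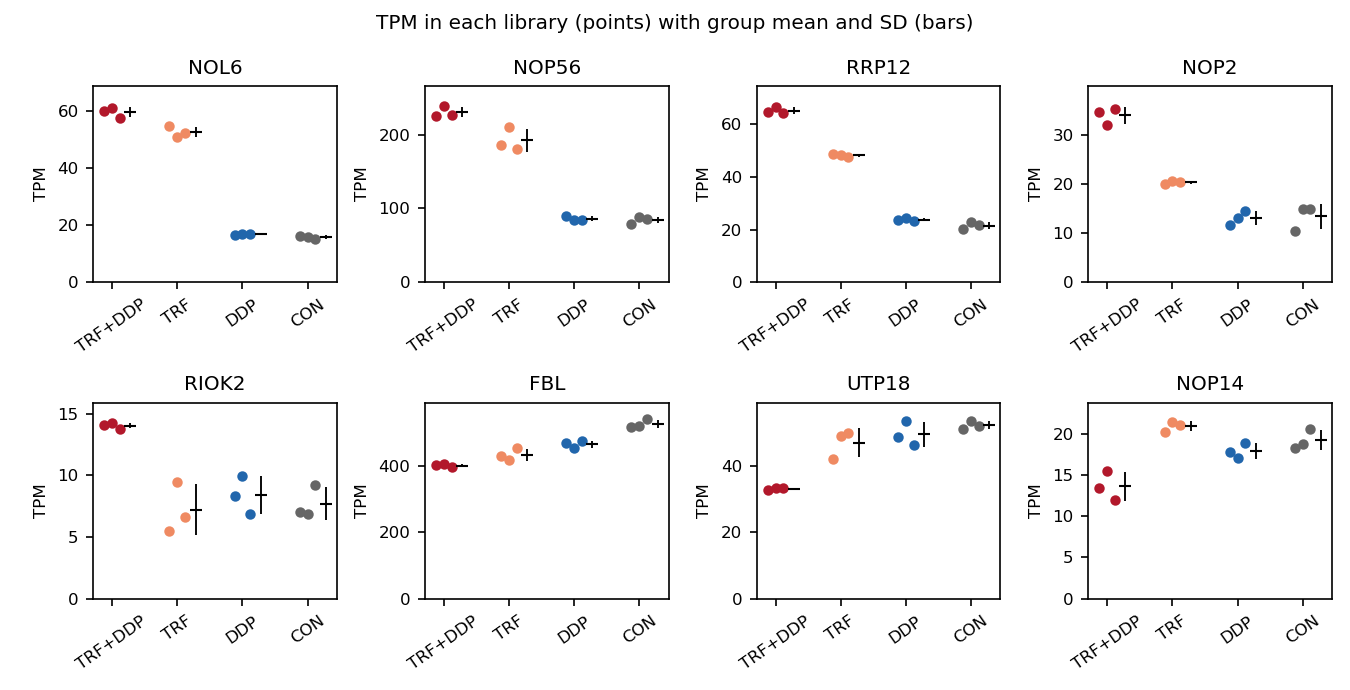
TPM of 8 members in each library (points) with the group mean and SD (bars), in the groups TRF + DDP, TRF, DDP and CON from left to right, on axes that start at 0. NOL6, NOP56 and RRP12 are high in both TRF groups, NOP2 and RIOK2 are highest in TRF + DDP, and FBL, UTP18 and NOP14 are lowest in TRF + DDP.

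All 3 U3-bound proteins rose in TRF + DDP against DDP, with a median log2 fold change of 1.28, and 2 of 3 rose in TRF against CON. The U3 snoRNP base-pairs with the precursor rRNA and holds the early particle together. IMP4 had 175, 182 and 182 TPM in TRF + DDP, 186, 196 and 199.5 TPM in TRF, 70.1, 73.2 and 71.2 TPM in DDP and 66.4, 68.9 and 71.04 TPM in CON. The 6 libraries under the regime exceeded the 6 in full medium, and the TRF libraries were the highest of all. Its change was 1.32 ± 0.04 (SE, adjusted p = 1.18e-10) with cisplatin and 1.48 ± 0.04 (SE, adjusted p = 6.6e-11) without. RRP9, the protein that marks U3 among box C/D particles, had 78.9, 82.1 and 77.8 TPM in TRF + DDP, 66.2, 67.9 and 72.2 TPM in TRF, 32.4, 31.5 and 32.6 TPM in DDP and 31.4, 30.2 and 33.4 TPM in CON. Its TRF + DDP libraries lay above its TRF libraries, and both above the rest, at 1.28 ± 0.05 (SE, adjusted p = 6.65e-10) with cisplatin and 1.09 ± 0.05 (SE, adjusted p = 4.44e-09) without. IMP3 had 204, 183 and 201 TPM in TRF + DDP, 152, 153 and 168 TPM in TRF, 118, 118 and 119 TPM in DDP and 114, 114 and 113 TPM in CON. Groups were ordered TRF + DDP, TRF, DDP and CON with no overlap, and DDP lay close to CON (0.06, not called). IMP3 was called with cisplatin, at 0.73 ± 0.05 (SE, adjusted p = 5.83e-08), but was under the fold threshold without, at 0.47 ± 0.05 (SE, adjusted p = 4.23e-06). An antisense transcript with no symbol overlaps IMP3 over 1217 bases and averaged 11.6 TPM in TRF + DDP, 6.65 TPM in TRF, 3.90 TPM in DDP and 3.90 TPM in CON.

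Of the UTP-A complex, which binds the leading end of the precursor and in human cells also takes part in RNA polymerase I transcription, 4 of 5 members rose in TRF + DDP against DDP (median 1.13) and 3 of 5 in TRF against CON. UTP15 had 18.3, 19.9 and 20.2 TPM in TRF + DDP, 12.2, 16.7 and 11.8 TPM in TRF, 5.93, 7.15 and 5.84 TPM in DDP and 7.24, 7.76 and 5.90 TPM in CON. The TRF + DDP libraries were above all others, and TRF replicate 2 stood above the other TRF libraries. UTP15 changed by 1.49 ± 0.13 (SE, adjusted p = 6.41e-07) with cisplatin, next after NOL6 among the members, and by 0.86 ± 0.13 (SE, adjusted p = 0.0001) without. ANKRA2 overlaps UTP15 on the opposite strand over 244 bases and averaged 23.9 TPM in TRF + DDP, 5.57 TPM in TRF, 14.7 TPM in DDP and 9.89 TPM in CON. WDR43 had 62.3, 61.2 and 61.1 TPM in TRF + DDP, 30.2, 41.98 and 32.7 TPM in TRF, 25.4, 30.9 and 26.1 TPM in DDP and 22.7, 23.8 and 22.2 TPM in CON. It was the TRF + DDP group that stood apart here, with 1.14 ± 0.10 (SE, adjusted p = 9.34e-07) against DDP and 0.81 ± 0.10 (SE, adjusted p = 4.78e-05) against TRF, while TRF against CON, at 0.58 ± 0.10 (SE, adjusted p = 0.000411), missed the fold threshold narrowly. WDR75 had 52.5, 49.2 and 65.2 TPM in TRF + DDP, 38.9, 37.6 and 31.1 TPM in TRF, 30.97, 22.5 and 21.7 TPM in DDP and 25.1, 20.03 and 19.04 TPM in CON. Its TRF + DDP libraries were the 3 highest, and its spread within groups was wide. The change was 1.13 ± 0.16 (SE, adjusted p = 5.72e-05) against DDP, 0.72 ± 0.16 (SE, adjusted p = 0.00187) in TRF against CON and 0.62 ± 0.16 (SE, adjusted p = 0.00691) against TRF. This last call fell under the fold threshold with TMM-style scaling (0.54), with quantile normalization (0.52), without TRF replicate 3 (0.52) and without TRF + DDP replicate 3 (0.50). HEATR1, which had the smallest change of the class, had 10.1, 9.47 and 9.61 TPM in TRF + DDP, 8.88, 10.3 and 8.21 TPM in TRF, 7.25, 7.47 and 7.37 TPM in DDP and 7.90, 7.91 and 7.55 TPM in CON. Its libraries under the regime lay above all those in full medium, but the log2 fold change of 0.36 ± 0.08 (SE, adjusted p = 0.00163) was under the fold threshold.

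The UTP-B complex was mixed, with 3 of 5 members higher in both comparisons, a median of 0.59 with cisplatin, and 1 member lower against CON. WDR36 had 11.9, 11.6 and 11.7 TPM in TRF + DDP, 8.58, 12.7 and 8.08 TPM in TRF, 6.00, 6.51 and 5.13 TPM in DDP and 6.32, 5.68 and 6.08 TPM in CON. With cisplatin its groups did not overlap, at 0.89 ± 0.13 (SE, adjusted p = 8.3e-05), and without cisplatin the change of 0.59 ± 0.13 (SE, adjusted p = 0.00222) fell to 0.41 without TRF replicate 2 and to 0.56 without CON replicate 2, both under the fold threshold. WDR3 had 13.2, 17.2 and 14.2 TPM in TRF + DDP, 10.9, 10.4 and 11.7 TPM in TRF, 8.12, 7.43 and 7.82 TPM in DDP and 7.16, 6.71 and 6.61 TPM in CON. TRF + DDP was highest and TRF next, with no overlap between groups under the regime and in full medium, at 0.84 ± 0.09 (SE, adjusted p = 5.07e-06) with cisplatin and 0.61 ± 0.09 (SE, adjusted p = 0.000104) without. The change without cisplatin was under the fold threshold without TRF replicate 3 (0.57). UTP6 had 28.3, 25.04 and 26.03 TPM in TRF + DDP, 23.3, 25.8 and 28.1 TPM in TRF, 15.2, 17.3 and 19.3 TPM in DDP and 15.3, 17.1 and 17.9 TPM in CON. Its change sat at the fold threshold, at 0.59 ± 0.09 (SE, adjusted p = 0.000129) with cisplatin. It was under it without DDP replicate 1 (0.51) or TRF + DDP replicate 1 (0.54). In TRF against CON, at 0.59 ± 0.09 (SE, adjusted p = 0.000169), it was under it without CON replicate 1 (0.53), TRF replicate 2 (0.58) or TRF replicate 3 (0.53). PWP2, the lowest member of this complex, had 3.05, 5.16 and 2.96 TPM in TRF + DDP, 2.75, 3.26 and 2.11 TPM in TRF, 2.43, 2.21 and 2.58 TPM in DDP and 2.95, 1.82 and 1.86 TPM in CON. TRF + DDP replicate 2 stood above all other libraries, TRF + DDP and TRF overlapped, and 0.44 ± 0.19 (SE, adjusted p = 0.0571) was not called, except with quantile normalization (0.68, adjusted p = 0.00624). UTP18 went the other way, with 32.7, 33.3 and 33.2 TPM in TRF + DDP, 41.95, 48.8 and 50 TPM in TRF, 48.6, 53.6 and 46.3 TPM in DDP and 51.1, 53.5 and 52.1 TPM in CON. All 3 TRF + DDP libraries lay below the other 9, and UTP18 was called lower against CON, at -0.64 ± 0.07 (SE, adjusted p = 3.72e-06), with -0.57 ± 0.07 (SE, adjusted p = 1.28e-05) against DDP, just under the fold threshold. Without DDP replicate 3 the value against DDP was -0.61 and passed it.

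Pre-40S maturation, the trimming and export of the small subunit precursor, had the highest share of calls among the larger classes. Of its 8 members, 7 rose in TRF + DDP against DDP (median 1.14) and 5 in TRF against CON. RRP12, a HEAT-repeat protein needed for export of the particles in yeast, had 64.9, 66.8 and 64.2 TPM in TRF + DDP, 48.9, 48.3 and 47.7 TPM in TRF, 23.7, 24.4 and 23.3 TPM in DDP and 20.2, 22.8 and 21.6 TPM in CON. The order TRF + DDP, TRF, then DDP and CON held with no overlap between TRF + DDP and TRF, and the changes were 1.42 ± 0.05 (SE, adjusted p = 2.89e-10) with cisplatin and 1.13 ± 0.05 (SE, adjusted p = 3.42e-09) without. PNO1, the partner of NOB1, had 45.9, 56.5 and 51.7 TPM in TRF + DDP, 39.1, 43.03 and 40.2 TPM in TRF, 20.8, 24.1 and 19.5 TPM in DDP and 17.8, 18.8 and 18.3 TPM in CON. Its groups were ordered alike, at 1.22 ± 0.09 (SE, adjusted p = 8.96e-08) with cisplatin and 1.11 ± 0.09 (SE, adjusted p = 3.38e-07) without. TSR1, a GTPase-like protein of late particles, had 67.8, 69.1 and 67.7 TPM in TRF + DDP, 56.2, 59.7 and 55.4 TPM in TRF, 29.3, 32.3 and 29.2 TPM in DDP and 31.00, 32.3 and 30.7 TPM in CON. The libraries under the regime again lay above all those in full medium, by 1.15 ± 0.05 (SE, adjusted p = 1.67e-09) with cisplatin and 0.84 ± 0.05 (SE, adjusted p = 3.85e-08) without.

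NOB1 and RIOK2 differed from these. NOB1, the endonuclease that makes the last cut of the small subunit rRNA, had 135, 145 and 137 TPM in TRF + DDP, 112, 123 and 129 TPM in TRF, 107, 105 and 103 TPM in DDP and 132, 129 and 133 TPM in CON. DDP was the lowest group and CON lay just below TRF + DDP, and 0.40 ± 0.05 (SE, adjusted p = 1.57e-05) in TRF + DDP against DDP, under the fold threshold, stood beside 0.07 ± 0.05 (SE, adjusted p = 0.208) in TRF + DDP against CON. RIOK2, an atypical kinase and ATPase of late pre-40S particles, had 14.1, 14.2 and 13.8 TPM in TRF + DDP, 5.52, 9.49 and 6.65 TPM in TRF, 8.34, 9.92 and 6.87 TPM in DDP and 7.04, 6.86 and 9.23 TPM in CON. All 3 TRF + DDP libraries lay above the other 9, which overlapped one another, and TRF against CON, at -0.10 ± 0.17 (SE, adjusted p = 0.623), was not called. RIOK2 was higher in TRF + DDP than in DDP by 0.69 ± 0.17 (SE, adjusted p = 0.00298) and than in TRF by 0.90 ± 0.17 (SE, adjusted p = 0.000875). The call against DDP fell under the fold threshold, at 0.57, without DDP replicate 3.

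Pre-60S maturation was the largest class, and 16 of its 19 members rose in TRF + DDP against DDP (median 0.89) and 11 in TRF against CON. The 3 that were not called were WDR12, DDX18 and LAS1L. NOP16 had 164, 160.4 and 172 TPM in TRF + DDP, 146, 153 and 165 TPM in TRF, 66.04, 60.8 and 57.8 TPM in DDP and 65.5, 64.3 and 68.8 TPM in CON. The 2 groups under the regime were close to each other and far above the rest, at 1.41 ± 0.06 (SE, adjusted p = 9.96e-10) with cisplatin and 1.21 ± 0.06 (SE, adjusted p = 6.41e-09) without. Its gene overlaps ARL10 on the opposite strand over 5038 bases, a gene at 3.51 TPM or less in group means. It also overlaps HIGD2A on the opposite strand over 229 bases, and HIGD2A averaged 239.7 TPM in TRF + DDP, 232.5 TPM in TRF, 233.0 TPM in DDP and 232.9 TPM in CON. NOP2, an RNA methyltransferase of the large subunit rRNA, had 34.6, 31.9 and 35.2 TPM in TRF + DDP, 19.9, 20.5 and 20.4 TPM in TRF, 11.6, 13.1 and 14.5 TPM in DDP and 10.5, 14.8 and 14.8 TPM in CON. TRF + DDP was above TRF, and TRF above the rest, with 1.32 ± 0.11 (SE, adjusted p = 6.5e-07) against DDP, 0.71 ± 0.11 (SE, adjusted p = 0.000295) against TRF and 0.58 ± 0.11 (SE, adjusted p = 0.000825) in TRF against CON, the last under the fold threshold. Another annotated gene covers NOP2 on the same strand over 11806 bases, so its values are uncertain, and that gene averaged 45.9 TPM in TRF + DDP, 41.5 TPM in TRF, 32.2 TPM in DDP and 31.1 TPM in CON. NIP7 had 62.8, 67.5 and 67.1 TPM in TRF + DDP, 46.3, 51.7 and 47.95 TPM in TRF, 24.5, 27.4 and 26.7 TPM in DDP and 27.6, 29.9 and 27.7 TPM in CON. Its TRF + DDP libraries lay above those of TRF and both above the rest, with DDP the lowest group, at 1.30 ± 0.06 (SE, adjusted p = 2.53e-09) with cisplatin and 0.76 ± 0.06 (SE, adjusted p = 4.74e-07) without.

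LAS1L, the endonuclease subunit that cuts the spacer ahead of the large subunit rRNA, had 24.9, 24.3 and 24.1 TPM in TRF + DDP, 28.02, 29.4 and 32.5 TPM in TRF, 33.96, 35.1 and 34.05 TPM in DDP and 32.4, 33.02 and 31.4 TPM in CON. Its TRF + DDP libraries were the 3 lowest of the 12, and -0.48 ± 0.06 (SE, adjusted p = 9.2e-06) against DDP was under the fold threshold. Among the rest of the class, PES1 and BOP1, which act as one complex with WDR12, changed by 1.01 ± 0.04 (SE, adjusted p = 1.14e-09) and 0.82 ± 0.05 (SE, adjusted p = 4.04e-08), while WDR12 had a change of 0.52 ± 0.10 (SE, adjusted p = 0.000655) and missed the fold threshold. WDR12 passed it with TMM-style scaling (0.63), quantile normalization (0.61) and without DDP replicate 2 (0.60). The GTPase GTPBP4 changed by 1.21 ± 0.12 (SE, adjusted p = 3.24e-06), and the remaining called members ranged from 0.69 for NOC3L to 1.21 for EBNA1BP2.

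In the snoRNP class, 3 of 7 members rose in TRF + DDP against DDP (median 0.56) and 2 of 7 in TRF against CON. NOP56, a core protein of box C/D particles, had 226, 238 and 227 TPM in TRF + DDP, 186, 210.4 and 181 TPM in TRF, 90.1, 84.2 and 84.6 TPM in DDP and 79.1, 87.8 and 85.5 TPM in CON. Its libraries under the regime lay far above those in full medium, at 1.41 ± 0.06 (SE, adjusted p = 1.23e-09) with cisplatin and 1.18 ± 0.06 (SE, adjusted p = 9.64e-09) without. DKC1, the pseudouridine synthase dyskerin of box H/ACA particles, had 81.4, 82.4 and 77.7 TPM in TRF + DDP, 87.6, 90.7 and 84.4 TPM in TRF, 39.9, 42.9 and 42.6 TPM in DDP and 46.3, 45.9 and 43.3 TPM in CON. Here TRF without cisplatin was the highest group, and the changes were 0.93 ± 0.05 (SE, adjusted p = 6.05e-09) with cisplatin and 0.94 ± 0.05 (SE, adjusted p = 1.01e-08) without. GAR1, which loads onto the same particle, had 41.6, 38.3 and 37.5 TPM in TRF + DDP, 41.3, 35.5 and 33.8 TPM in TRF, 26.6, 24.2 and 25.5 TPM in DDP and 27.9, 28.3 and 25.5 TPM in CON. Its change of 0.60 ± 0.08 (SE, adjusted p = 1.87e-05) lay at the fold threshold and was under it without DDP replicate 2 (0.57) or TRF + DDP replicate 1 (0.56). NHP2, another box H/ACA protein, had 414, 409.6 and 408 TPM in TRF + DDP, 432, 443 and 499.8 TPM in TRF, 363, 337 and 396 TPM in DDP and 403, 426 and 427 TPM in CON. Its TRF + DDP libraries lay above DDP, within the range of CON and below TRF, and 0.17 ± 0.06 (SE, adjusted p = 0.0294) was not called. FBL, the methyltransferase of box C/D particles and the partner of NOP56, stood at 397 to 404 TPM in TRF + DDP, 416 to 453 TPM in TRF, 452 to 474 TPM in DDP and 516 to 539.7 TPM in CON. Its log2 fold changes were -0.21 ± 0.04 (SE, adjusted p = 0.000284) in TRF + DDP against DDP and -0.28 ± 0.04 (SE, adjusted p = 3.76e-05) in TRF against CON, both under the fold threshold and of the opposite sign to those of NOP56.

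Of the 5 nucleolar proteins, 3 rose in each of the 2 comparisons, with a median of 0.75 with cisplatin. DDX21, an RNA helicase that binds both rRNA genes and snoRNAs, had 109, 112 and 111 TPM in TRF + DDP, 51.9, 72.4 and 57.3 TPM in TRF, 46.1, 52.3 and 43.6 TPM in DDP and 38.7, 39.6 and 36.9 TPM in CON. The TRF + DDP libraries stood above all others and TRF replicate 2 above the other TRF libraries. DDX21 changed by 1.21 ± 0.10 (SE, adjusted p = 4.02e-07) against DDP, 0.88 ± 0.10 (SE, adjusted p = 1.93e-05) against TRF and 0.63 ± 0.10 (SE, adjusted p = 0.00016) in TRF against CON. The last fell to 0.50, under the fold threshold, without TRF replicate 2. NOLC1, a chaperone of snoRNPs, had 170.3, 174 and 165 TPM in TRF + DDP, 156, 167 and 149.6 TPM in TRF, 80.7, 83.4 and 82.5 TPM in DDP and 78.8, 82.7 and 78.7 TPM in CON. Its libraries under the regime lay far above those in full medium, at 1.04 ± 0.04 (SE, adjusted p = 1.32e-09) with cisplatin and 0.97 ± 0.04 (SE, adjusted p = 4.58e-09) without. NCL, nucleolin, had 477, 510.5 and 469 TPM in TRF + DDP, 459, 516 and 465 TPM in TRF, 269, 307 and 293 TPM in DDP and 317, 319.5 and 301 TPM in CON. TRF + DDP and TRF overlapped each other and both exceeded the rest, at 0.75 ± 0.06 (SE, adjusted p = 2.19e-07) with cisplatin and 0.61 ± 0.06 (SE, adjusted p = 1.9e-06) without. The call without cisplatin was under the fold threshold without TRF replicate 2 (0.56) and with quantile normalization (0.56). TCOF1, treacle, which works with RNA polymerase I, had 37.8, 38.1 and 35.5 TPM in TRF + DDP, 33.9, 36.1 and 37.5 TPM in TRF, 31.6, 29.4 and 31.7 TPM in DDP and 27.4, 27.6 and 28.8 TPM in CON. Its libraries under the regime were above those in full medium by less than the fold threshold, at 0.26 ± 0.05 (SE, adjusted p = 0.00118). NPM1, the most abundant member, was at 1525 to 1568 TPM in TRF + DDP, 1673 to 1876 TPM in TRF, 1049.5 to 1316 TPM in DDP and 1148 to 1392 TPM in CON, and 0.42 ± 0.09 (SE, adjusted p = 0.00111) was not called. Its 49 annotated pseudogenes summed to 2.48 to 5.26 TPM per library.

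The related lists, also chosen with earlier results of these data known, were counted in the same way. Among 88 other ribosome biogenesis factors, 44 were called higher and 1 lower in TRF + DDP against DDP (median 0.59), and 31 were higher and 1 lower in TRF against CON (median 0.46). Of the 32 subunits of RNA polymerases I and III, 12 were higher and 1 lower with cisplatin (median 0.48), and 6 were higher and 0 lower without (median 0.28). Of the 77 cytosolic ribosomal proteins, the products that these factors assemble, 0 were higher and 0 lower in either comparison, with medians of 0.12 and 0.10. With cisplatin their log2 fold changes lay from -0.51 to 0.50, all under the fold threshold. With no fold threshold, 56 and 48 of the 77 had an adjusted p under 0.05 by limma, against 9056 and 8412 of the 13854 tested genes. The ribosomal protein transcripts summed to 22.8% of TPM in TRF + DDP, 23.7% in TRF, 21.5% in DDP and 22.4% in CON.

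**Figure D3:**
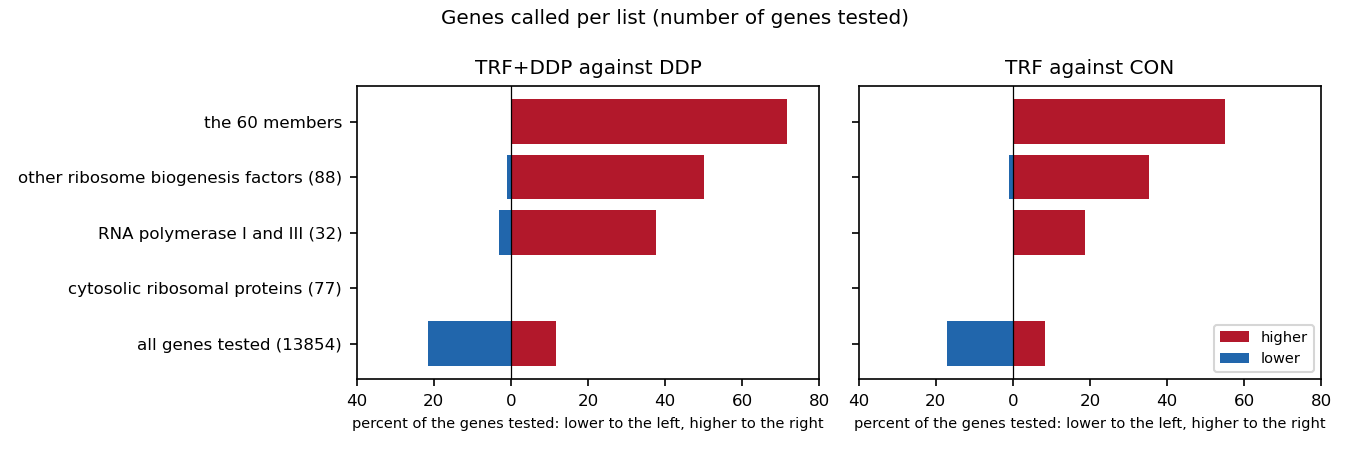
Percent of the genes tested in each list that were called higher (bars to the right) or lower (leftward bars), with TRF + DDP set against DDP and TRF against CON. The bars to the right shorten from the members (71.7% and 55.0%) through the other factors (50% and 35.2%) and the polymerase subunits (37.5% and 18.8%) to the ribosomal proteins (0% in both), beside 11.8% and 8.41% of all tested genes.

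Among the other factors, CCDC86 had the largest rise in TRF + DDP against DDP, at 1.55 ± 0.05 (SE, adjusted p = 1.8e-10). SBDS, the protein that releases a late anti-association factor from the large subunit, rose by 1.39 ± 0.07 (SE, adjusted p = 3.66e-09), and its level may include reads of its pseudogene SBDSP1. NIFK, which binds the proliferation antigen MKI67, rose by 1.33 ± 0.07 (SE, adjusted p = 1.29e-08). The 1 gene called lower was NOP53, a pre-60S factor, with 153, 160.3 and 146 TPM in TRF + DDP, 217, 195 and 189.9 TPM in TRF, 361, 331 and 366 TPM in DDP and 351, 366 and 378 TPM in CON. Its 6 libraries under the regime lay below all 6 in full medium. The log2 fold change in TRF + DDP against DDP was -1.20 ± 0.06 (SE, adjusted p = 3.8e-09).

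The next question was what cisplatin added to the regime. In TRF + DDP against TRF, 6 of 60 members were called higher and 1 lower, against 10.2% and 6.1% of all tested genes, so the share of members called was near that of all genes. The median was 0.18 over the members and 0.06 over all genes. With TMM-style scaling the median of the members was 0.10, and 52.4% of all called genes were higher, against 62.6% without scaling. The 6 were RIOK2, DDX21, WDR43, NOP2, WDR75 and GTPBP4, and GTPBP4, at 0.65 ± 0.12 (SE, adjusted p = 0.00104), fell under the fold threshold with TMM-style scaling (0.57), quantile normalization (0.55) and without TRF replicate 3 (0.53). NOP14 was the 1 called lower.

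No member passed both thresholds with cisplatin in full medium. In DDP against CON, 0 of 60 members were called higher and 0 lower by limma, against 1.86% and 0.159% of all tested genes, and the median was 0.03 over the members and 0.06 over all genes. The sign of the members' median turned with TMM-style scaling (-0.049) and quantile normalization (-0.050). At an unadjusted p under 0.05, 12 members were higher and 7 lower, against 21% and 6.19% of all tested genes. At an adjusted p under 0.05 with no fold threshold, where 10% of all tested genes were higher and 2.17% lower, 2 members were higher, UTP4 at 0.15 ± 0.04 (SE, adjusted p = 0.0346) and BYSL at 0.19 ± 0.05 (SE, adjusted p = 0.0317), and 3 were lower, NOB1 at -0.33 ± 0.05 (SE, adjusted p = 0.00134), FBL at -0.18 ± 0.04 (SE, adjusted p = 0.0102) and PES1 at -0.15 ± 0.04 (SE, adjusted p = 0.0417). The share of all called genes that were higher was 92.1%, against 82.0% with TMM-style scaling and 78.6% with quantile normalization.

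Whether the effect of the regime differed with cisplatin was tested by the interaction, the change in TRF + DDP against DDP minus that in TRF against CON. At an adjusted p under 0.05, 14 of 60 members had an interaction above 0 and 3 below 0, against 13.5% and 16.3% of all tested genes. In either direction 17 of 60 members passed, against 4129 of 13854 genes, so the shares were near each other. The median was 0.18 over the members and 0.00 over all genes, and 48 of 60 members were above 0, against 6963 of 13854 genes. Pre-40S maturation held 5 of the 14 (RIOK2, NOB1, BYSL, TSR1 and RRP12), pre-60S maturation 3 (NOP2, NIP7 and RRP1B), the UTP-A complex 2 (UTP15 and WDR43), the other 90S factors 2 (DDX10 and DDX47), the U3-bound proteins 1 (IMP3) and the nucleolar proteins 1 (DDX21). The largest were RIOK2 at 0.80 ± 0.24 (SE, adjusted p = 0.0251), NOP2 at 0.73 ± 0.16 (SE, adjusted p = 0.00514) and UTP15 at 0.63 ± 0.18 (SE, adjusted p = 0.0228). The 3 below 0 were NOP14 at -0.49 ± 0.12 (SE, adjusted p = 0.00841), UTP18 at -0.41 ± 0.10 (SE, adjusted p = 0.00752) and LAS1L at -0.37 ± 0.08 (SE, adjusted p = 0.00414). The interactions of RIOK2 and UTP15 did not pass the threshold with no filter on low values (adjusted p = 0.0804 for RIOK2 and 0.0699 for UTP15). They were also lost in 5 (RIOK2) and 7 (UTP15) of the 12 fits that left out 1 library. The interaction of DDX47 was lost with no filter (adjusted p = 0.0820), without trend and robust (0.0526) and in 9 of those 12 fits. Some genes that overlap these members also had an interaction in the same limma fit. ANKRA2 over UTP15 had 1.37 (adjusted p = 0.000134), the antisense transcript over IMP3 0.73 (adjusted p = 0.00932) and NOP14-AS1 0.88 (adjusted p = 3.17e-05). Others were not called, such as the same-strand gene over NOP2, at 0.09 (adjusted p = 0.514), and COG8 over NIP7, at 0.21 (adjusted p = 0.131). The part of overlapping genes in the members' values was not tested.

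**Figure D4:**
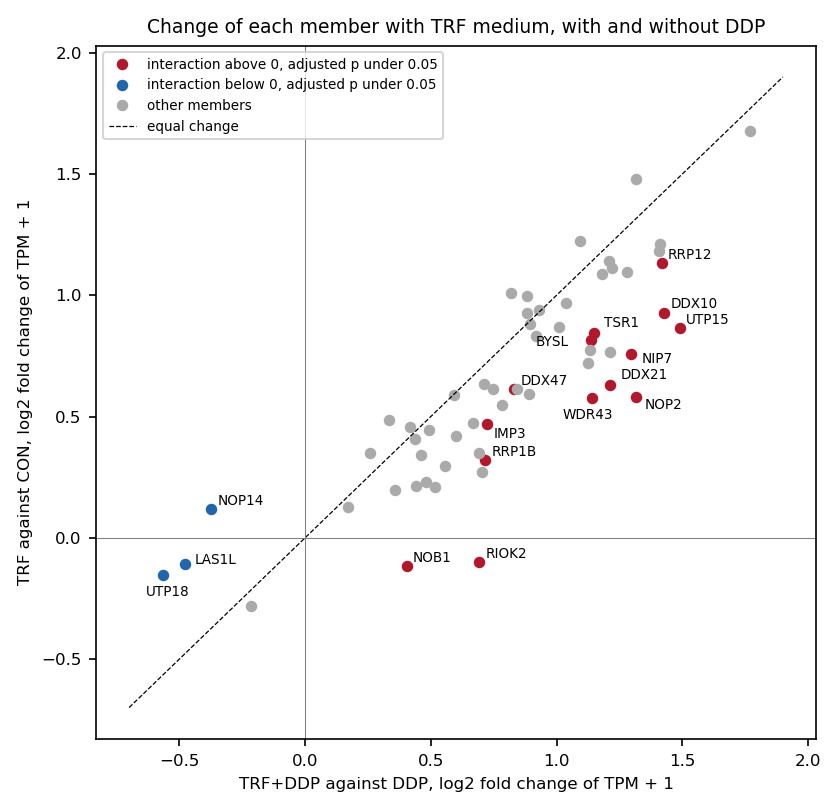
Each point is 1 of the 60 members, with its log2 fold change of TPM + 1 in TRF + DDP against DDP on the horizontal axis and in TRF against CON on the vertical axis. Points below the dashed line of equal change had the larger change with cisplatin, among them the 14 members coloured red such as NOP2 (1.32 and 0.58), and the 3 coloured blue (UTP18, LAS1L and NOP14) lie above it.

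Libraries of 1 group did not vary alike in these genes. Among the TRF libraries, replicate 2 was the highest in 31 of 60 members (51.7%), against 47% of all tested genes, and it stood well above the other TRF libraries for UTP15, WDR36, UTP20 and RIOK2. Among the TRF + DDP libraries replicate 2 was the highest in 34 members (56.7%), against 34.6% of all tested genes, and among the DDP libraries replicate 2 was the highest in 33 (55%), against 42%. Among the CON libraries it was replicate 2 again, in 26 members (43.3%), against 29.8% of all tested genes. Within groups, log2(TPM + 1) correlated between libraries with r from 0.979 to 0.983 over all tested genes, and between groups with r from 0.915 to 0.979. In all, 21 members overlap another gene at 1 TPM or more, 18 of them on the opposite strand, and no value could be corrected for it.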

How the data were processed

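RNA of 12 A549/DDP libraries, 4 groups of 3, was selected with oligo(dT) and sequenced. The authors used SeqPrep and sickle for read trimming, mapped with HISAT2, assembled transcripts with StringTie and deposited TPM per gene and library, with group means that were not used. The unit was inferred from the columns and their sums. The submitters' processing notes also name edgeR. Versions, genome build, quantification tool, strand use and library depth are not given in these sources, so precision rests on the spread of 3 libraries. TPM is a share of each library, so that a change in abundant transcripts shifts all others.

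Values were taken as log2(TPM + 1), and fold changes, which are on that scale, understate the changes of low genes. The 13854 genes averaging 1 TPM or more were fitted in limma 3.58.1 (R 4.3.3) with a trend and robust empirical Bayes, over all 4 groups, with Benjamini-Hochberg adjustment per comparison. Calls required a fold over 1.5 at an adjusted p under 0.05, the study's own limits, and the interaction the adjusted p alone. The study's count-based test could not be used on TPM. Alternatives were TMM-style scaling (trims of 0.3 and 0.05), quantile normalization, a pseudocount of 0.1, no filter, 1 TPM in every library, limma without trend and robust, a replicate block, only the groups compared, no fold threshold, and each of the 12 libraries left out. The fit was tested on simulated data. Symbols were found for 60463 of 60664 Ensembl identifiers, overlaps came from GENCODE v29 (GRCh38) and promoters from RefSeq (GRCh38.p14). The members and the lists were chosen with earlier results of these data known. Members given in every library were the 3 with the largest and the 1 with the smallest change of each role (all members of a class of 4 or fewer), those called lower, and those with the 3 largest interactions of each sign. FBL, NPM1, GTPBP4, PES1, BOP1, WDR12, UTP4, BYSL, BMS1 and DDX52 are named besides, after their values were seen. So are NOC3L, EBNA1BP2, RRP1B, DDX47, NOP58, NOP10 and DDX18.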

Additional observations from a re-analysis of the deposited data

Results flagged for a closer look

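The change under the feeding regime differed with cisplatin for 17 of the 60 members, by the interaction term of the limma fit (change in TRF + DDP against DDP minus change in TRF against CON, adjusted p under 0.05). So it did for 4129 of the 13854 tested genes, and the share of members was near that of all genes. The interaction was above 0 on the log2 scale for RIOK2 (0.80), NOP2 (0.73), UTP15 (0.63), DDX21 (0.58), WDR43 (0.56), NIP7 (0.54), NOB1 (0.52), DDX10 (0.50), RRP1B (0.40), BYSL (0.32), TSR1 (0.30), RRP12 (0.29), IMP3 (0.26) and DDX47 (0.22). It was below 0 for LAS1L (-0.37), UTP18 (-0.41) and NOP14 (-0.49). Genes overlapping UTP15, IMP3 and NOP14 had an interaction too, and the same-strand gene over NOP2 was not called, as given above. The calls of RIOK2, UTP15 and DDX47 were lost in 6, 8 and 11 of the 19 alternatives, and with 1 library left out in turn the members above 0 ranged from 11 to 21. Over all tested genes 13.5% were above 0 and 16.3% below 0 at the same threshold, against 23.3% and 5.0% of the members. NOB1 had the smallest adjusted p of these (0.000205), and its level in DDP against CON had a log2 fold change of -0.33 (adjusted p = 0.00134), under the fold threshold. RIOK2 and NOB1 had a fitted change of negative sign without cisplatin (-0.10 and -0.12) and of positive sign with it (0.69 and 0.40), and none of these except that of RIOK2 with cisplatin was called. No test for single outlying values was run within groups of 3 libraries, and libraries that stood apart are named above by description.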

How the results depend on the processing

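The alternatives were followed for 163 results on single members. These were every member in TRF + DDP against DDP and, in the other comparisons and the interaction, only the members already called. Of the 163, 138 kept their direction and their side of the threshold in every alternative run, 18 lost the call in at least 1, and none changed sign. The rest gained a call in at least 1, and were PWP2, UTP18, NOP58, NOP10, BMS1, WDR12 and DDX18 in TRF + DDP against DDP. By the choice of the 163, a gain in another comparison could not appear among them. Of these, NOP58 (0.68), NOP10 (0.61) and DDX18 (0.60) passed with TMM-style scaling, and BMS1 (0.59) with quantile normalization. With no fold threshold, 4 members were lower in TRF + DDP against DDP, 28 higher and 5 lower against TRF, 4 lower against CON, 50 higher and 1 lower in TRF against CON, and 2 higher and 3 lower in DDP against CON. In either direction, TRF + DDP had 59 members passing against DDP, 33 against TRF and 58 against CON. There were 51 in TRF against CON and 5 in DDP against CON. Of the 13854 tested genes, 9056, 6639, 9314, 8412 and 1690 passed in the same order. The median of the members was 0.95 against DDP, 0.10 against TRF and 0.91 against CON for TRF + DDP with TMM-style scaling, 0.11 against TRF with quantile normalization, and 0.93 against CON with a pseudocount of 0.1. In DDP against CON it was -0.049 with TMM-style scaling and -0.050 with quantile normalization, of the other sign than the 0.03 without scaling. Without mitochondrially encoded genes in the total, the members took 0.787% in TRF + DDP, 0.761% in TRF, 0.517% in DDP and 0.544% in CON.

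With 1 library left out in turn, the members called higher ranged from 41 to 44 in TRF + DDP against DDP, 4 to 8 against TRF, 45 to 46 against CON, 28 to 35 in TRF against CON, 0 to 0 in DDP against CON and 11 to 21 for the interaction. Those called lower ranged from 0 to 1, 0 to 1, 1 to 1, 0 to 0, 0 to 0 and 3 to 4 in the same comparisons, and the medians from 0.81 to 0.87, 0.16 to 0.20, 0.87 to 0.88, 0.57 to 0.66 and 0.01 to 0.05 in the 5 pairs of groups. The summed share was 0.717 to 0.723% in TRF + DDP, 0.691 to 0.715% in TRF, 0.459 to 0.471% in DDP and 0.481 to 0.495% in CON. Over all tested genes, same-numbered replicates did not deviate together (r from -0.08 to 0.08 in 18 pairs, against -0.08 to 0.13 in 36 pairs with different numbers), so the numbers were not taken to pair the libraries. The check was not made over the members alone, where replicate 2 was most often the highest library in each group. The replicate block changed the call of none of the 163 results, with 43 members higher in TRF + DDP against DDP. TPM without read numbers leaves the counting error of low members such as PWP2 unknown.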
